A study of Arabidopsis thaliana with 8 samples.

Results

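Transcripts of the 4 Arabidopsis ferritins, the 4 nicotianamine synthases and the transporters YSL1 and YSL3 were examined in rosette leaves, 10 genes among the 27826 loci measured. The genes were chosen by name and family, with the difference between the groups of these same arrays already known, so their differences, intervals and places relative to the threshold are a description of these arrays and not independent evidence of a difference. The loci were AT5G01600 (FER1), AT3G11050 (FER2), AT3G56090 (FER3), AT2G40300 (FER4), AT5G04950 (NAS1), AT5G56080 (NAS2), AT1G09240 (NAS3), AT1G56430 (NAS4), AT4G24120 (YSL1) and AT5G53550 (YSL3). All 10 were protein-coding genes in the TAIR10.1 gene table, all had a value on every array, and no filter on low values was applied. Total RNA from leaves was hybridised to 8 Affymetrix arrays. Wild type Col-0 plants gave 4 arrays. A line described as a mutant with depleted NAA50, an N-terminal acetyltransferase, gave the other 4, and the field for its ecotype holds the single word animaa50. The labels and files do not state how the line was made, its parental accession or whether it is 1 transgenic line. Both groups were grown on soil in short days, were 7 weeks old and were harvested 2 h into the light period. Array batches and scan dates were not analysed here, and their part in the differences was not tested.

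Iron is needed by the chloroplast for photosystems and iron-sulfur proteins, and free iron is harmful because it drives the formation of reactive oxygen species. Ferritins are protein shells in plastids that hold iron in a safe form, and their transcripts are known to rise with iron supply and to be repressed when iron is short. Nicotianamine synthases join molecules of S-adenosylmethionine into nicotianamine, a small chelator that keeps iron, copper and zinc soluble in cells and in the phloem. YSL proteins carry metal-nicotianamine complexes across membranes, and YSL1 and YSL3 act together in leaf veins, in loading seeds and in moving metals out of old leaves.

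The arrays shared 1 distribution of values, with a median of 2.73 on the log2 scale and a 25th percentile of 1.66. Values below this median are called dim here, since signal over background was not given, and a difference between dim values is less certain in size. AT5G11340, taken as NAA50 by the field's nomenclature because the gene table gives it no symbol, was 4.23 to 4.75 on the wild type arrays and 10.24 to 10.52 on the arrays labelled depleted. It was thus higher by 5.83 ± 0.14 (SE, n = 4 arrays per group, limma adjusted p = 3.47e-09), and if the title refers to transcript, this goes against the label. All differences below are therefore those of the arrays labelled NAA50-depleted minus those labelled wild type. Nothing in the labels ties the arrays to separate plants. Errors and p-values therefore cover the spread between these arrays, and precision is limited by their number.

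Of the 10 genes, FER1 and NAS1 were clearly lower on the arrays labelled depleted and YSL3 was higher, while the other members of each family differed less. FER1 was 3.21-fold lower (95% interval 1.94 to 5.29), NAS1 was 4.03-fold lower (3.10 to 5.24) and YSL3 was 2.32-fold higher (1.57 to 3.44). The limma fit over all loci placed 4 of the 10 past an adjusted p of 0.05, namely FER1, FER4 and NAS1 below and YSL3 above, FER4 in only 3 of 14 alternative fits. Of all loci measured, 14.5% passed, 6.95% higher and 7.58% lower. The 2 groups of arrays did not overlap for 5 of the 10 genes, the 4 above and YSL1, and did not overlap at 18.8% of all loci. Because the genes were proposed with this contrast in view, nothing is read from these shares. The median difference of the 10 genes was -0.47, where that of all loci was -0.03. In whole leaves, fewer cells of a type and less RNA per cell cannot be told apart.

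**Figure D1:**
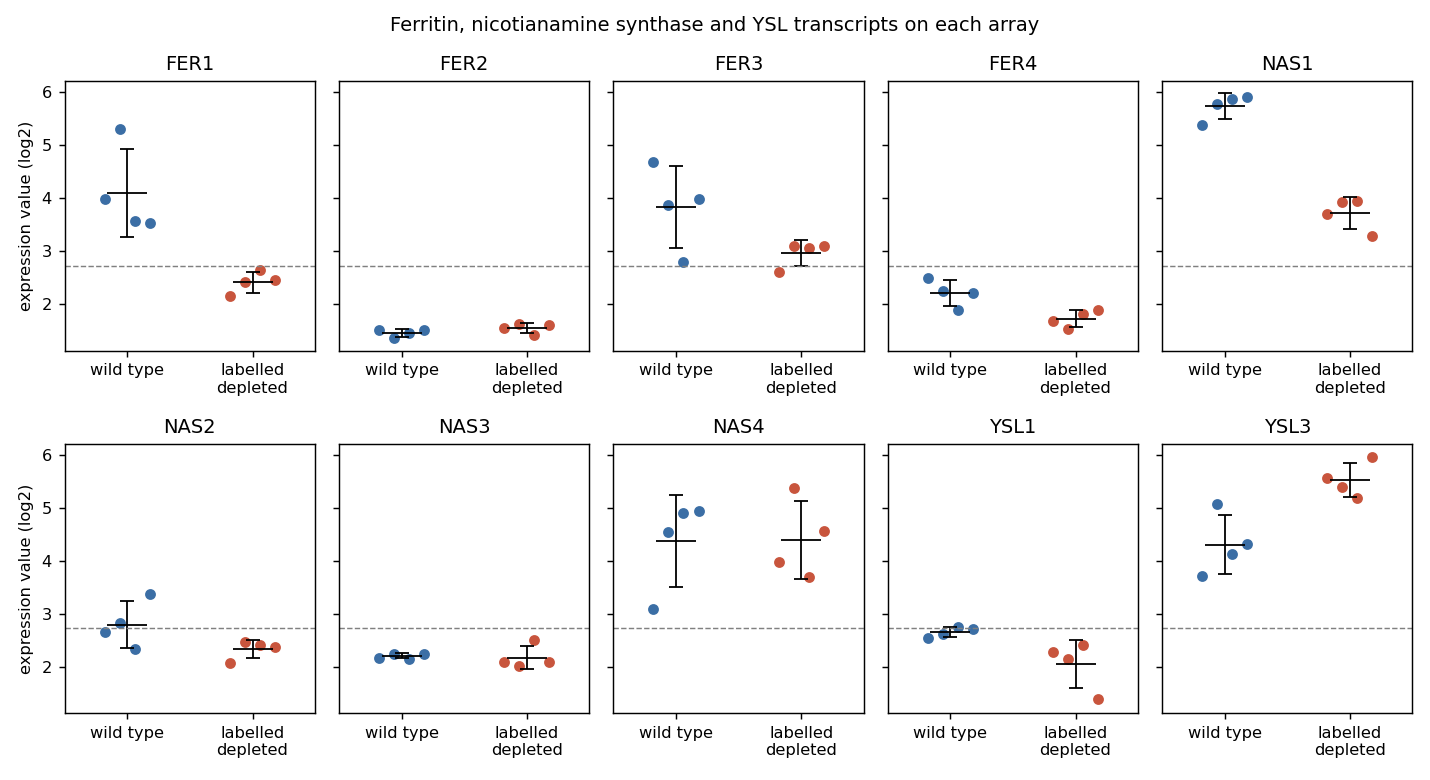
Expression value (log2) of each of the 10 genes on each of the 8 arrays. Points are single arrays in order of replicate number, horizontal bars and whiskers are the group mean ± SD (n = 4 arrays), and the dashed line is the array median of 2.73. FER1 and NAS1 lie lower and YSL3 higher on every array labelled depleted, whereas the arrays of the 2 groups overlap for FER2, FER3, NAS2, NAS3 and NAS4.

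Among the ferritins, FER1 showed the largest difference. FER1, the main iron-responsive ferritin of leaves, was 3.98, 5.31, 3.57 and 3.54 on wild type replicates 1 to 4 and 2.16, 2.43, 2.64 and 2.46 on labelled-depleted replicates 1 to 4. Every labelled-depleted array lay below the array median and every wild type array above it, with a gap of 0.90 between the groups. On the log2 scale this was a difference of -1.68 ± 0.33 (SE, n = 4 arrays per group). Wild type replicate 2 stood above the other wild type arrays, and without it the difference was -1.28. Since the labelled-depleted level was dim, the fold is less certain than the direction.

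FER3 and FER4 are, like FER1, ferritins of vegetative tissue. FER3 was 4.68, 3.87, 2.81 and 3.99 on the wild type arrays and 2.60, 3.11, 3.06 and 3.10 on the labelled-depleted arrays. Wild type replicate 3 fell within the labelled-depleted range, so the groups overlapped, although the other wild type arrays were all higher. The difference was -0.87 ± 0.31, and it was -1.21 without wild type replicate 3, the only array whose removal carried FER3 past the threshold, and -0.59 without wild type replicate 1. FER4 was 2.50, 2.25, 1.89 and 2.22 on the wild type arrays and 1.68, 1.53, 1.83 and 1.89 on the labelled-depleted arrays. All these FER4 values were dim, and only 0.000244 separated the lowest wild type from the highest labelled-depleted value. The FER4 difference was -0.48 ± 0.15, and of the fits that left out 1 array it stayed past the threshold only in the fit without wild type replicate 3 (-0.59), with a range of -0.59 to -0.39 over the 8 fits. FER4 also fell short of the threshold with the replicate block, after cyclic loess, with trended and robust variance and with array weights.

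FER2 is the ferritin known mainly from seeds. It was 1.51, 1.36, 1.46 and 1.53 on the wild type arrays and 1.56, 1.62, 1.42 and 1.61 on the labelled-depleted arrays. All 8 values were below the 25th percentile and the groups overlapped. The difference was 0.09 ± 0.11, with a 95% interval of -0.15 to 0.32.

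The nicotianamine synthases differed most at NAS1. NAS1 was 5.37, 5.77, 5.87 and 5.91 on the wild type arrays and 3.71, 3.92, 3.95 and 3.30 on the labelled-depleted arrays. The groups were 1.42 apart at their nearest, the widest gap among the 10 genes, and all 8 values lay above the array median. The difference was -2.01 ± 0.17 (SE, n = 4 arrays per group), and it ranged from -2.13 to -1.87 when each array was left out in turn.

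NAS4 showed no such difference but the widest spread. NAS4, an isoform known to be induced in iron-deficient plants, was 3.10, 4.54, 4.89 and 4.95 on the wild type arrays and 3.98, 5.36, 3.69 and 4.55 on the labelled-depleted arrays. Wild type replicate 1 was the lowest and labelled-depleted replicate 2 the highest, and the groups overlapped across most of their range. The difference of 0.03 ± 0.43 had a 95% interval of -0.92 to 0.97, the widest of the 10 genes. Its sign depended on single arrays. Leaving out wild type replicate 1 gave -0.40, and leaving out labelled-depleted replicate 2 or 4 gave -0.30 or -0.03.

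NAS2 and NAS3 were dim on most arrays. NAS2, a root-expressed isoform that is also known to respond to iron shortage, was 2.67, 2.82, 2.33 and 3.38 on the wild type arrays and 2.08, 2.48, 2.41 and 2.39 on the labelled-depleted arrays. The groups overlapped through wild type replicate 3, and the difference was -0.46 ± 0.20, or -0.27 without wild type replicate 4. NAS3, known from leaves and reproductive organs, was 2.18, 2.26, 2.16 and 2.25 on the wild type arrays and 2.09, 2.03, 2.51 and 2.09 on the labelled-depleted arrays. The groups overlapped, labelled-depleted replicate 3 being the highest of all 8. Its difference was -0.03 ± 0.13 with a 95% interval of -0.32 to 0.25, and it was 0.02 without labelled-depleted replicate 2.

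The transporters YSL1 and YSL3 differed in opposite directions. YSL3 was 3.73, 5.07, 4.13 and 4.31 on the wild type arrays and 5.56, 5.40, 5.19 and 5.95 on the labelled-depleted arrays. All labelled-depleted values were higher, wild type replicate 2 coming nearest at 0.12 below them. The YSL3 difference was 1.22 ± 0.26 (SE, n = 4 arrays per group), with a range of 1.02 to 1.47 when each array was left out. YSL1 was 2.54, 2.62, 2.75 and 2.72 on the wild type arrays and 2.29, 2.15, 2.42 and 1.41 on the labelled-depleted arrays. The groups did not overlap, but 7 of the 8 YSL1 values were dim. The YSL1 difference was -0.59 ± 0.20 and did not pass the threshold. It was -0.37 without labelled-depleted replicate 4, the lowest array, and -0.71 and past the threshold without labelled-depleted replicate 3.

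**Figure D2:**
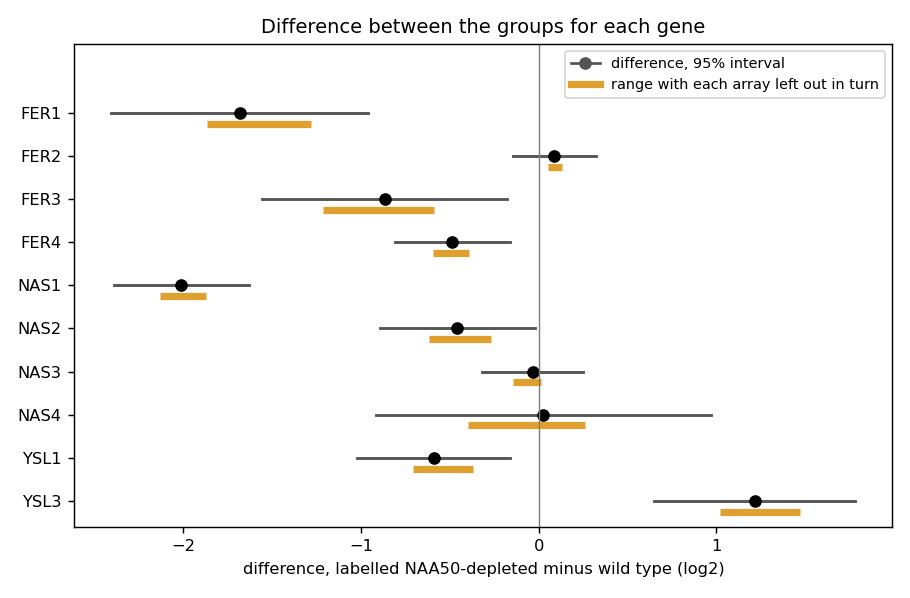
Difference between the groups for each gene, labelled NAA50-depleted minus wild type (log2). Points are the differences, grey lines their 95% intervals from the moderated standard errors (n = 4 arrays per group), and orange bars the range when each of the 8 arrays was left out in turn. The orange bars of FER1, NAS1 and YSL3 stay far from 0, and those of NAS3 and NAS4 cross it.

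The differences of members of 1 family were also set against each other. Within an array, the log2 ratio of each of the 13 pairs of genes of the same family was formed. The size of such a ratio has no meaning, because the probes differ, but its shift between groups restates the differences above as a contrast of 2 genes on the same array. It is a description, as those are, and no share of separate ratios among other loci was computed. The ratio of YSL1 to YSL3 shifted by -1.81, from between -2.45 and -1.18 on the wild type arrays to between -4.54 and -2.78. The ratio of NAS1 to NAS4 shifted by -2.04, from between 0.96 and 2.27 to between -1.44 and 0.26. That of FER1 to FER4 shifted by -1.20, and its groups of arrays were also separate. The ratio of FER1 to FER3 shifted by -0.81, and there the wild type range of -0.70 to 1.44 held all labelled-depleted values. In all, the groups were separate for 7 of the 13 ratios, 3 of them with NAS1 and 2 with FER1, and overlapped for 6, among them NAS3 to NAS4 with a shift of -0.06. Several of the separate ratios hold FER2 or FER4, whose values were all dim. Whether the probes tell these related genes apart was not examined.

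Another 71 genes, of iron handling, of S-adenosylmethionine synthesis and of the phosphate starvation response, were placed in 7 lists by function. The lists were chosen with earlier results of these data known, and the differences of their genes were tested in the same fit. Of these genes 5 rose and 10 fell. This count, like those of the single lists below, is to be read against the 6.95% of all loci that rose and the 7.58% that fell. The median difference of the 71 genes was -0.03, as it was for all loci. The clear increases were those of BTS, bHLH121, FRO3 and ZIF1, and the clear decreases those of ABC1, MAT3 and PAP17. These 7 of the 15 called genes passed the threshold under all 14 alternative fits, of which median centring could change nothing because all arrays share 1 set of values. MAT3 and PAP17, and the smaller decreases of SAM1 and SPX1, belong to the S-adenosylmethionine and phosphate lists. The count of decreases was 3 to 6 when any 1 array was left out, 3 with the replicate number as a block and 4 after cyclic loess normalization. After cyclic loess the split was 6 higher to 4 lower.

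Of 10 regulators of iron and ferritin genes, 2 rose and 1 fell. BTS, an iron-binding ubiquitin ligase that restrains the iron-deficiency response, was 6.71, 7.51, 8.26 and 7.98 on the wild type arrays and 9.12, 9.69, 8.88 and 9.03 on the labelled-depleted arrays. It rose by 1.56 ± 0.30 (SE, n = 4 arrays per group, limma adjusted p = 0.00428), with all labelled-depleted arrays above all wild type arrays. The bHLH factor bHLH121, an activator of the iron-deficiency response, rose by 1.16 ± 0.11 (adjusted p = 5.64e-05), from 6.48 to 6.66 on the wild type arrays to 7.56 to 7.86. The related factor bHLH34 fell by 0.49 ± 0.14 (adjusted p = 0.0417), with dim values on 3 arrays, all labelled depleted. The bHLH34 call was lost in 6 of the 8 fits that left out an array, those without wild type replicates 1, 2 or 4 or labelled-depleted replicates 2, 3 or 4 (-0.51 to -0.39). It was also lost with the replicate block (adjusted p = 0.0856), after cyclic loess (0.0647) and with trended and robust variance (0.0693). ILR3, a bHLH factor that represses ferritin genes with PYE and activates other iron genes, differed by -0.05 (adjusted p = 0.857), and PYE by 0.35 (adjusted p = 0.529). PHR1, the phosphate starvation factor that also acts on FER1, differed by -0.08 (adjusted p = 0.790).

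Of 16 genes of organelle iron transport, only FRO3 passed. FRO3, a ferric reductase of mitochondria and a known iron-deficiency marker, was 6.20, 6.86, 7.77 and 7.73 on the wild type arrays and 8.76, 9.43, 8.63 and 8.71 on the labelled-depleted arrays. It rose by 1.74 ± 0.32 (SE, n = 4 arrays per group, limma adjusted p = 0.00369), or 3.35-fold. VIT1, the vacuolar iron importer, differed by -0.17 (adjusted p = 0.491), and the chloroplast reductase FRO7 by -0.28 (adjusted p = 0.431). The list median was -0.16, and 8 of the 16 had a mean below the array median.

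Of 10 genes of uptake and long-distance transport, only ZIF1 passed. ZIF1, a vacuolar transporter that brings nicotianamine into the vacuole, was 6.45, 6.53, 7.29 and 6.86 on the wild type arrays and 8.15, 8.74, 7.91 and 7.92 on the labelled-depleted arrays. It rose by 1.40 ± 0.22 (adjusted p = 0.00142 in limma, n = 4 arrays per group). OPT3, a phloem transporter of iron signalling, differed by 0.43 (adjusted p = 0.327). Of the 6 other YSL genes, YSL5 alone passed, at 0.48 ± 0.14 (adjusted p = 0.0412). The YSL5 call was lost without wild type replicates 1, 2 or 3 or labelled-depleted replicates 1, 2 or 4 (0.39 to 0.53), and with the replicate block (adjusted p = 0.0596).

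Among the 4 S-adenosylmethionine synthetases, which make the substrate of nicotianamine synthase, MAT3 and SAM1 fell. MAT3 was 7.12, 7.09, 7.05 and 6.81 on the wild type arrays and 5.12, 5.76, 5.60 and 5.27 on the labelled-depleted arrays. MAT3 fell by 1.58 ± 0.15 (SE, n = 4 arrays per group, limma adjusted p = 5.8e-05). SAM1 fell by 0.42 ± 0.11 (adjusted p = 0.0278), and the SAM1 call held only without labelled-depleted replicate 4 among the fits that left out an array (-0.44 to -0.37 in the others). The replicate block (adjusted p = 0.0597) and cyclic loess (0.111) also ended the SAM1 call. SAM2 differed by -0.02 and MTO3 by 0.22.

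Of 12 genes of plastid iron-sulfur cluster assembly, 5 fell and none rose, but 4 of the 5 decreases were small and only that of ABC1 held under every alternative. With the replicate block 1 fell and none rose, and after cyclic loess 1 fell and 1 rose. ABC1, also called ABCI8, the scaffold subunit SUFB, was 6.11, 6.20, 5.34 and 5.87 on the wild type arrays and 3.97, 3.33, 3.64 and 3.47 on the labelled-depleted arrays. ABC1 fell by 2.28 ± 0.20 (SE, n = 4 arrays per group, limma adjusted p = 2.94e-05), or 4.85-fold. The others were small: NAP7 fell by 0.40, NAP6 by 0.38, NFU1 by 0.38 and NFU3 by 0.39, with adjusted p-values of 0.0290 to 0.0415. The NAP7 call held only without labelled-depleted replicate 3 among the fits that left out an array. NAP6 kept its call in 2 of those 8 fits, those lacking replicate 3 of the wild type or replicate 4 of the labelled-depleted arrays. Both NFU1 and NFU3 kept it without replicate 4 of the wild type, NFU1 also when labelled-depleted replicate 1 was dropped and NFU3 when labelled-depleted replicate 2 was. All 4 calls were also lost with the replicate block and after cyclic loess, where NAP7 differed by -0.28. SUFE2, an activator of the cysteine desulfurase, differed by 0.52 ± 0.16 (adjusted p = 0.0587), more than those 4 genes in size and in the other direction, with overlapping groups. Without wild type replicate 3, 2 genes of the list fell and 1 rose. The list median was -0.25.

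Of 13 phosphate starvation genes, listed because FER1 is known to respond to phosphate supply, 2 fell and none rose. Of all loci 7.58% fell and 6.95% rose. The acid phosphatase PAP17 fell by 1.34 ± 0.21 (SE, n = 4 arrays per group, limma adjusted p = 0.00139), and its lower mean, 2.78, lay near the array median. SPX1, a phosphate sensor protein, fell by 0.87 ± 0.23 (adjusted p = 0.0252), although labelled-depleted replicate 1 lay within the wild type range. SPX1 was dim on the other 3 labelled-depleted arrays. The SPX1 call was lost without wild type replicates 2, 3 or 4 or labelled-depleted replicates 2, 3 or 4 (-0.87 to -0.75), and with the replicate block (adjusted p = 0.0616).

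**Figure D3:**
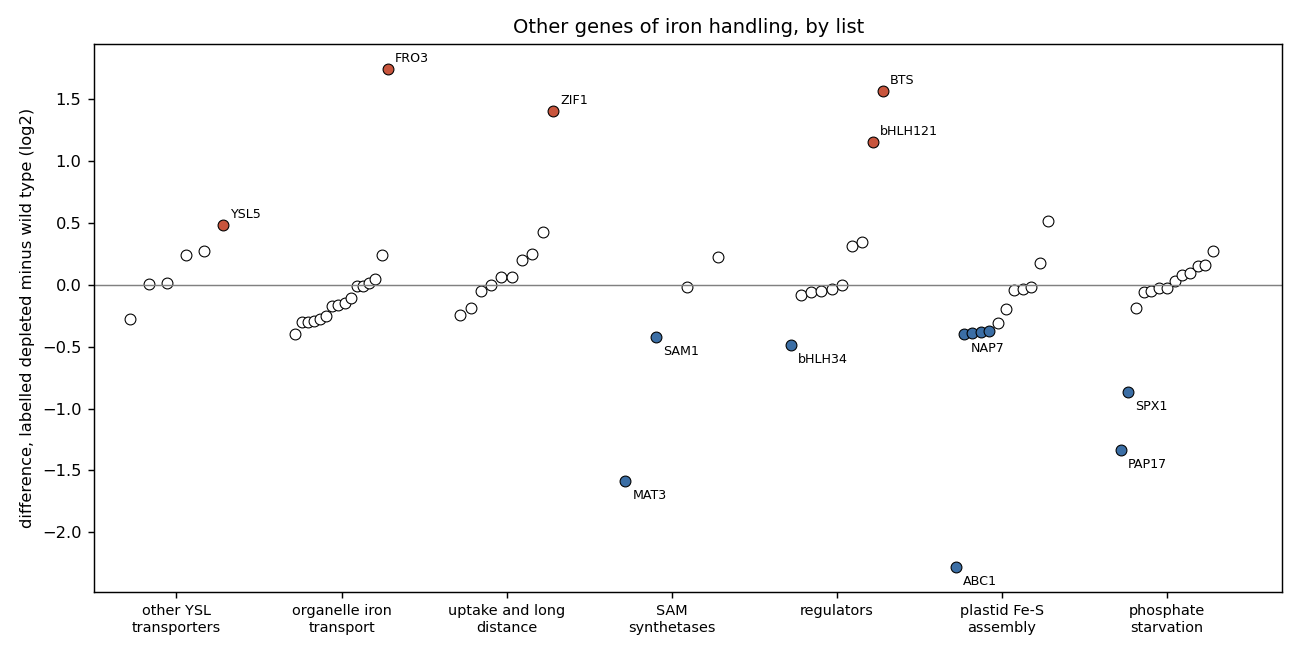
Difference between the groups (log2, labelled NAA50-depleted minus wild type) of the 71 other genes of iron handling, S-adenosylmethionine synthesis and phosphate starvation, each point 1 gene, in 7 lists. Filled points passed an adjusted p of 0.05 in limma (red higher, blue lower), open points did not, and names mark the called genes that the naming rule took. FRO3, BTS, ZIF1 and bHLH121 stand above the rest and ABC1, MAT3 and PAP17 below.

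Deviations between arrays of 1 group were compared between members and the 7 list genes called under every alternative. For each array the deviation from its own group mean was taken, which removes the difference between the groups. NAS4 deviated with BTS (Pearson r = 0.915, Spearman rho = 0.857, n = 8 arrays, r = 0.882 without the 2 arrays farthest from the median of BTS). NAS4 also deviated with FRO3 (r = 0.890, rho = 0.738, 0.791 without 2 arrays) and with ZIF1 (r = 0.750, rho = 0.905, 0.587 without 2 arrays). Wild type replicate 1 was low in NAS4, BTS and FRO3, with deviations of -1.27, -0.90 and -0.94 in turn, and labelled-depleted replicate 2 was high in all 3. ZIF1 deviated by -0.33 and 0.56 on these arrays, in the same directions. The pairs with BTS, FRO3 and ZIF1 are therefore not independent of each other. FER4 deviated in the opposite direction from ZIF1 (r = -0.915, rho = -0.929, -0.755 without 2 arrays) and from BTS (r = -0.907, rho = -0.952, -0.772 without 2 arrays), on dim FER4 values. The same held for FER4 and FRO3 (r = -0.844, rho = -0.833, -0.642 without 2 arrays). NAS1 deviated with PAP17 (r = 0.882, rho = 0.714), but r was 0.243 without 2 arrays, so that relation rests on those arrays. These pairs were picked after their values were seen, from 70 pairs of a member and a list gene, and are a description. All genes of an array share its RNA and its normalization, whose part in them was not tested.

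Among the 45 pairs of members, FER3 and FER4 deviated together (r = 0.823, rho = 0.548), as did NAS1 and YSL1 (r = 0.811, rho = 0.690). Without the 2 arrays farthest from the median these values were 0.172 and 0.262, so both relations rest on those arrays. FER1 had its largest deviation, 1.21, on wild type replicate 2, where YSL3 also deviated by 0.76, while FER3 and FER4 deviated there by 0.04 and 0.03.

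**Figure D4:**
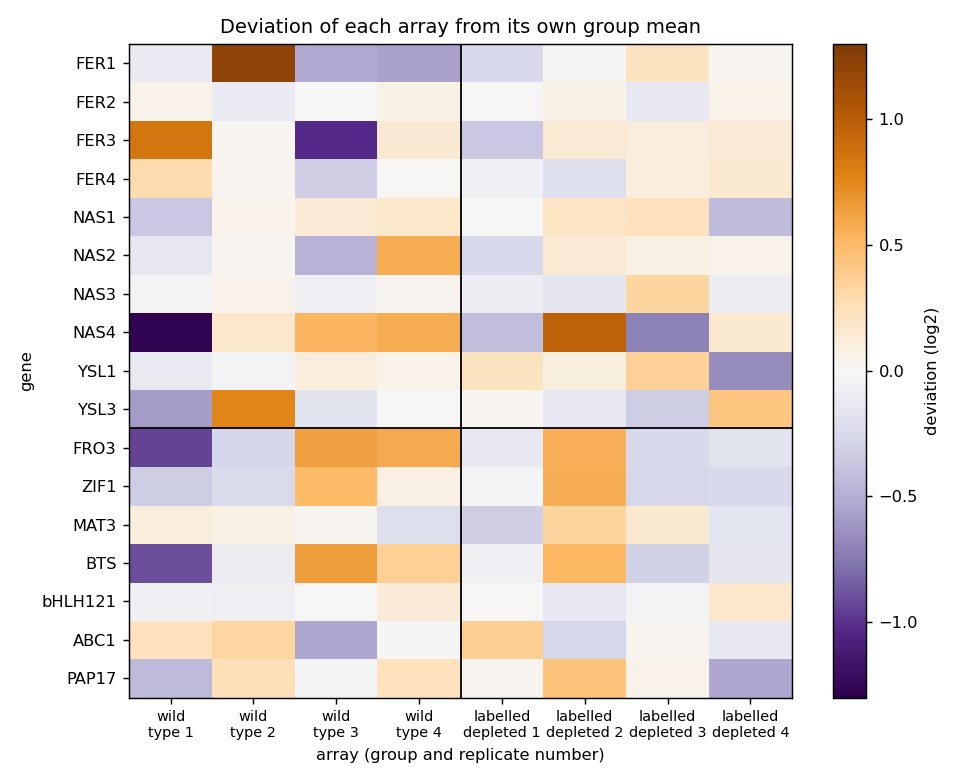
Deviation (log2) of each array from its own group mean, for the 10 genes and, below the horizontal line, for the 7 list genes that passed the threshold under every alternative. Colour runs from purple (below the group mean) to brown (above), and the vertical line parts the 4 wild type from the 4 labelled-depleted arrays. Wild type replicate 1 is low in NAS4, FRO3 and BTS, and wild type replicate 2 is high in FER1 and YSL3.

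Searching the 9980 loci with a mean above 4 for the deviations most like those of FER1 gave AT5G41810 (r = 0.973), the auxin-response repressor IAA8 (0.969) and AT5G08670 (0.946). For NAS1 they were AT1G73950 (0.978), the zinc finger factor STZ (0.973) and AT4G27130 (0.967), and for YSL3 the glucosinolate regulator MYB28 (0.992), the receptor kinase HAE (0.979) and AT1G19400 (0.972). Each r is over 8 arrays and is among the highest of that search of 9980 loci, so its size alone does not tie a locus to the member. Shared regulation was not tested. Of these 9 loci, 3 passed the threshold between the groups in limma. STZ rose by 3.27 (adjusted p = 9.58e-05), opposite in sign to NAS1, and MYB28 fell by 1.78 (adjusted p = 7.89e-05), opposite in sign to YSL3. IAA8 fell by 0.54 (adjusted p = 0.0159), as FER1 was lower.

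Markers of leaf cell types and other organs were read on the same arrays. Calls among them are to be read against the 14.5% of all loci that were called. The mean level of 8 phloem and vein markers, where YSL1, YSL3 and nicotianamine synthases are known to act, was 3.97 to 4.53 on the wild type arrays and 4.19 to 4.50 on the labelled-depleted arrays. Of these markers SWEET12, a sucrose exporter, rose by 0.58 (limma adjusted p = 0.0329), with dim values on 7 of the 8 arrays. The other 7 did not pass and went in both directions, from -0.69 for AHA3 to 0.51 for SWEET11. The mean of 5 mesophyll markers was 9.85 to 10.07 and 9.57 to 9.74. None was called, but all 5 differences were negative, from -0.42 to -0.07. Among 5 epidermis markers LTP1 fell by 0.84 (adjusted p = 0.00071), and the list mean was 7.10 to 7.37 and 6.77 to 7.06. The other 4 did not pass, from -0.25 for CER6 to 0.04 for PDF1. Among 4 guard cell markers KAT1 fell by 0.92 (adjusted p = 0.0127), and the list mean was 4.00 to 4.46 and 3.69 to 4.03. The other 3 did not pass, from -0.45 for MYB60 to 0.06 for HT1. The 3 root, 3 flower and 2 seed markers had means of 1.38 to 1.97 on all arrays, below the array median, as for FER2. The part of cell composition in the differences above was not tested.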

How the data were processed

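Expression was measured in 4 wild type and 4 labelled NAA50-depleted samples, grouped by their titles. The deposited values were made by the authors with RMA, per the submitters' processing notes, and were taken as log2 because that is the scale RMA gives. Neither its version nor the chip definition, build or log base is stated there. All columns held the same sorted values, so a global shift cannot be seen. Symbols came from the TAIR10.1 gene table, which held 27241 of the 27826 loci.

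All loci were fitted by group alone with limma 3.58.1 in R 4.3.3 (lmFit, eBayes), with two-sided p-values adjusted by Benjamini-Hochberg over all 27826 loci and a threshold of 0.05. The fit was tested on simulated data. The members and lists were chosen with earlier results of these data known. Of each list, up to 2 of the largest increases and 2 of the largest decreases past the threshold are named, with loci of like deviation found by Pearson correlation. ILR3, PYE, PHR1, VIT1, FRO7, OPT3, SAM2, MTO3, NAP6, NFU1, NFU3, SUFE2, SWEET11, SWEET12, AHA3, LTP1 and KAT1 were named after their values were seen. The same holds for CER6, PDF1, MYB60 and HT1. Alternatives were the replicate block, cyclic loess, median centring, a filter keeping loci that exceeded the 25th percentile on 4 or more arrays, a trended robust variance, array weights, each array left out, and an adjusted p of 0.01. Promoter and protein sequences were not analysed here.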

Additional observations from a re-analysis of the deposited data

Results flagged for a closer look

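In 46 sets of 4 arrays, taken from 23 genes, 3 had a single array far from the other 3 by Dixon's ratio, where chance marks about 1 in 20. FER3 on labelled-depleted replicate 1 was 2.60 against 3.06 to 3.11 on the other 3 arrays. NAS3 on labelled-depleted replicate 3 was 2.51 against 2.03 to 2.09. FRO3 on labelled-depleted replicate 2 was 9.43 against 8.63 to 8.76.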

How the results depend on the processing

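Over 14 alternative fits the differences were -1.87 to -1.28 for FER1, -2.13 to -1.87 for NAS1 and 1.02 to 1.47 for YSL3, a description, since these genes were chosen on the same arrays. The block, median centring, the filter and the trended variance cannot move a difference here. Cyclic loess moved a member by at most 0.074, array weights by at most 0.088, and leaving out wild type replicate 1 moved one by 0.423. FER2 was removed by the filter on dim loci. Loci called over the whole table were 1934 higher and 2108 lower, 1228 and 1010 at an adjusted p of 0.01, 2267 and 1559 after cyclic loess (59.3% higher against 47.8%), and 1635 to 1797 and 1592 to 1882 without 1 array. In the 7 lists, decreases numbered 3 at an adjusted p of 0.01, 3 with the replicate block, 4 after cyclic loess and 3 to 6 without 1 array, against 10. Increases were 4 to 6 against 5 in these fits. The smaller calls were near the threshold; the cause was not tested. The labels do not say that replicate numbers mark a shared batch, and the deviations of same-numbered arrays correlated at -0.05 to 0.04, with 2 of 8 arrays closest to their own number, so the block was kept as an alternative. FER4 was past the threshold in 3 of the 14 alternatives, median centring, the filter and the fit without wild type replicate 3. The comparison of promoter motif windows was not run, as no sequences were used here. Dim values limit FER2, FER4, NAS2, NAS3 and YSL1 most.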

Other observations

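The loci next to the 10 genes on the chromosomes, in the order of the TAIR10.1 gene table, were also read. Of these 20 loci 1 was called in limma, where 14.5% of all loci were called. It was AT3G56080, beside FER3, and it fell by 1.53 ± 0.12 (log2, SE over 4 arrays a group, adjusted p = 1.73e-05). The neighbours of NAS1 differed by -0.41 and -0.43 (adjusted p = 0.123 and 0.120). Those of YSL3 differed by 0.002 and -0.003, and those of FER1 by -0.34 (adjusted p = 0.157) and -0.01.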
